A study of Mus musculus with 8 samples.

Results

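Heat shock and stress chaperones were read in the brains of mice with a D50A missense change (aspartate to alanine) in CSTF2, an RNA-binding protein of the machinery that cleaves pre-mRNA ahead of polyadenylation. The set is 8 genes, taken by exact symbol from a count table of 25815 genes: Hspa8, Hspa1a, Hspa1b, Dnajb1, Hsph1, Hsp90aa1, Hspb1 and Hspa5. All 8 had a row, and all 8 passed the filter on low counts that left 16810 genes for testing. Whole-brain poly(A) RNA was sequenced from 5 mutant mice, D50A 1 to 5 (genotype Cstf2D50A), and 3 wild-type littermates, WT 1 to 3. Every mouse was 50 days old, untreated and of a C57BL/6NCrl background made by 4 backcross generations and kept as a closed colony. The labels give neither sex nor zygosity, and the change is in the gene itself, so no promoter or Cre restricts it to a cell type. The question was whether the mutation alters levels of the chaperone transcripts.

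Chaperones bind unfolded or partly folded proteins and release them for folding or degradation. In the cytosol this work is shared by HSP70 proteins, which cycle on and off clients with the help of J-domain proteins and nucleotide exchange factors, by HSP90 proteins, which act late on signalling clients, and by small heat shock proteins, which hold clients without ATP. Heat shock factor 1 (HSF1) binds heat shock elements in the promoters of the inducible genes when unfolded protein builds up, and neurons are known for a high resting level of constitutive HSP70 and HSP90 and a high threshold for inducing the stress forms. The endoplasmic reticulum has its own HSP70, encoded by Hspa5, under the unfolded protein response.

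Libraries held 13675945 to 24802272 counts. D50A 3 stood apart from the other 7, where mitochondrially encoded genes took 11.9% of all counts beside 4.08% to 5.14% elsewhere, and each member's fold change is also given without it. Cerebellar transcripts were several-fold more abundant in D50A 2 to 5 than in the other 4 libraries, although all are labelled total brain. The 12 cerebellar markers summed to 914 to 1213 CPM (each count relative to the scaled library size) in D50A 2 to 5, to 247.5 CPM in D50A 1, while the WT sums were 250.4 to 265 CPM. Gabra6, a cerebellar granule cell gene, had 0 counts in D50A 1 and WT 1. Among D50A libraries only D50A 1 had a marker sum near those of WT, so genotype and cerebellar content largely go together in these libraries. Cstf2, the edited gene, had means of 108 ± 25.3 CPM in D50A (SD, n = 5) and 127 ± 6.66 CPM in WT (SD, n = 3) (edgeR adjusted p = 0.837), which cannot check the labels because a missense change need not alter the count.

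A pair of sequence features of these genes were described: the elements in their promoters and the bases they share with other genes. Of the pair, only the shared bases bear on how the counts can be read. The set of RefSeq promoters used here (GRCm38.p6) had an entry for 6 of the 8 genes, all but Hspa8 and Hsp90aa1. The 250 bases before the start were searched on both strands for heat shock elements written as GAANNTTC or TTCNNGAA. GAANNTTC was found in the Hspa1a, Hspa1b and Hspb1 windows and in 6.69% of all 32851 promoter windows. TTCNNGAA was found in the Hsph1 windows and in 7.17% of all. The Hsph1 match lay before the RefSeq start but inside the gene as annotated for gene positions, which begins at 149636376 on the minus strand. Hspa1a and Hspa1b, the stress-inducible HSP70 genes, differ at 3 of these 250 bases (98.8% identity). Their windows are printed because the pair is nearly the same gene placed side by side; capitals mark the element, which begins 104 bases before the start in each. Hspa1a lies at chr17:34972157-34972406 and Hspa1b at chr17:34959239-34959488, both on the minus strand.
Hspa1a: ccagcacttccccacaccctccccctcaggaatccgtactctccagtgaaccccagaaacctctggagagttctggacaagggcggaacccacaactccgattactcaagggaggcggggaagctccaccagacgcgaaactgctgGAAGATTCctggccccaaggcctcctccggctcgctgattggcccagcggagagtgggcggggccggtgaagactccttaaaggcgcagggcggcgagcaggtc
Hspa1b: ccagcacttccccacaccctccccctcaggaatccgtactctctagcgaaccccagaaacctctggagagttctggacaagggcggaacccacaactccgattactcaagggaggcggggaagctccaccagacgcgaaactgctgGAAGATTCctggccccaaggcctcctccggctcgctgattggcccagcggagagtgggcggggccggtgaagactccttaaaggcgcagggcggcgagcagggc
The Hspb1 window, chr5:135887669-135887918 on the plus strand, held GAANNTTC in 2 places, beginning 117 and 97 bases before the start, again in capitals.
Hspb1: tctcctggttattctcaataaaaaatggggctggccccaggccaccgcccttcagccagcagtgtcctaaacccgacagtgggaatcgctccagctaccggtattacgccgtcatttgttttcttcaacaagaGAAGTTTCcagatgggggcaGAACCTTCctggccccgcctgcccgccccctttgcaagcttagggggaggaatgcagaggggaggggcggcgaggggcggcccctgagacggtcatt
The Hspa5 window held neither heat shock element form but did hold the endoplasmic reticulum stress element, CCAAT and CCACG with any 9 bases between them, present in 0.113% of all windows, at chr2:34772021-34772047 with 4 bases on each side. In the annotation used for gene positions Hspa5 begins at 34771970, so this element lies before the RefSeq start but inside the annotated gene. Capitals mark the element, whose first bases are also a match to CCAAT searched alone, present in 33.8% of all windows.
Hspa5: ttcaCCAATCGGAGGCCTCCACGacgg
Neither form of the heat shock element, nor the endoplasmic reticulum stress element, was matched in the Dnajb1 windows. The Dnajb1 window at chr8:83608298-83608547 lies inside the annotated gene, which begins at 83608193, so it says nothing of the bases upstream of the gene. A longer heat shock element, GAANNTTC followed by any pair of bases and GAA, and the TATA box TATAAA were searched too, matched none of the 6 genes, and lay in 0.466% and 12.4% of all windows. A match describes letters only, and these data hold no measure of factor binding.

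The bodies of the genes differ in how far their reads can be assigned. Hspa1a (ENSMUSG00000091971, chromosome 17, 34969190 to 34972156 in mm10) and Hspa1b (ENSMUSG00000090877, chromosome 17, 34956436 to 34959238) each have 1 exon, and over 1923 aligned coding bases they differ at 8 (99.6% identity, plus 3 bases in a gap), with an identical run of 638 bases. The densest 60-base stretch of differences, coding bases 1357 to 1416 counted from the first base of the start codon, holds only 2, shown in capitals.
Hspa1a: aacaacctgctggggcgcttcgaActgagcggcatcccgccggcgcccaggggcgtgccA
Hspa1b: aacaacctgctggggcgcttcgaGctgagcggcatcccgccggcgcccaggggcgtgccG
Of all 100-base windows along the longest coding transcript, searched on both strands, 56.5% of Hspa1a and 49.9% of Hspa1b recur exactly in the transcript of another gene. Counting only each other, the share was 47.1% of Hspa1a and 49.9% of Hspa1b. The search did not separate copies elsewhere from a gene annotated over the same bases. The share with any other gene was 63.4% for Hspa8, whose copies lie in 9 other annotated genes, 56.3% for Hspb1, all of it in Hsp25-ps1, and 47.5% for Hsp90aa1. It was 0% for Dnajb1, Hsph1 and Hspa5. Reads from windows with a copy elsewhere cannot be placed by sequence, and neither the read length nor the treatment of such reads is given in the sources used here. The counts of Hspa8, Hspa1a, Hspa1b, Hspb1 and Hsp90aa1 are therefore uncertain by an unknown part. Hspa1a also lies within a region annotated to Gm20481 on the opposite strand, and no source used here says whether the counting used strand.

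Hspa8 and Hsp90aa1 were by far the most abundant of the 8 transcripts, and the Hspa1a and Hspa1b pair the least. On a scale of CPM per kilobase of exon, WT means were 305 for Hspa8, 279.7 for Hsp90aa1, 50.4 for Hspa5, 39.6 for Hsph1, 14.9 for Dnajb1, 3.92 for Hspb1, 1.39 for Hspa1b and 1.07 for Hspa1a. The length used was all annotated exon bases of a gene, which can exceed the transcript expressed. It was 7266 for Hsph1 and 4229 for Hspa5, whose longest coding transcripts have 3802 and 3672 bases. Before division by length the WT means were 288 CPM for Hsph1 and 213 CPM for Hspa5. The order of Hspa5 and Hsph1 therefore depends on the length used. Hspa1a and Hspa1b overlapped over the 8 libraries, at 0.499 to 1.19 and 0.363 to 2.07. Compared within each library, Hspa1b was the higher except in D50A 3, where it was at 0.363 against 0.499. Hspa8 and Hsp90aa1 did not overlap in the 7 libraries other than D50A 3, at 302 to 308 and 231 to 288, and their ranges overlapped once D50A 3 was counted. Compared within each library, Hspa8 was the higher in all 8, at 666 against 346 in D50A 3. On the scale per kilobase of exon, every other pair of neighbours in this order was separated in all 8 libraries. Together the 8 genes took 0.288% to 0.312% of all counts in 7 libraries and 0.393% in D50A 3.

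No member passed the test between D50A and WT. With edgeR's quasi-likelihood test 0 of the 8 were called in either direction, against 0% of 16810 genes called higher and 0% called lower, and 0 of the 8 had an unadjusted p under 0.05, against 2.5% of all genes. The same test called 0 of the 12 cerebellar markers, although their median log2 fold change was 2.38 and 11 had an unadjusted p under 0.05. DESeq2 called 8 of those markers higher and limma-voom 10. A gene left uncalled by edgeR is therefore not shown to be at equal levels. By limma-voom 3 of the 8, Hspa1a, Hsph1 and Hspb1, had an unadjusted p under 0.05, against 20.3% of all genes. By edgeR without D50A 1 and D50A 3 (chosen with the data in view) 3 did, Hspa1a, Hsph1 and Hspa5, against 22.2%. The D50A libraries left in that fit all had high cerebellar marker sums and the WT libraries low ones. Genotype and cerebellar content cannot be told apart there, and 12 of the 12 cerebellar markers were called higher. DESeq2 called 0 members higher and 0 lower, with a background of 0.168% and 0.0324%, and limma-voom with sample quality weights also called 0 and 0, with a background of 1.87% and 1.2%. In none of the 8 genes did every D50A library lie above every WT library, which held for 3.23% of genes, or below, which held for 4.24%. With D50A 3 left out both counts were again 0 of 8, where 4.81% of genes lay wholly above and 5.78% wholly below. The fitted log2 fold change was above 0 in 5 members and below 0 in 3, with a median of 0.07 beside -0.01 over all genes. Without D50A 3 that median was -0.01, and without D50A 1 and D50A 3 it was 0 with 0 members called, where 3.36% of genes were called higher and 3.06% lower.

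**Figure D1:**
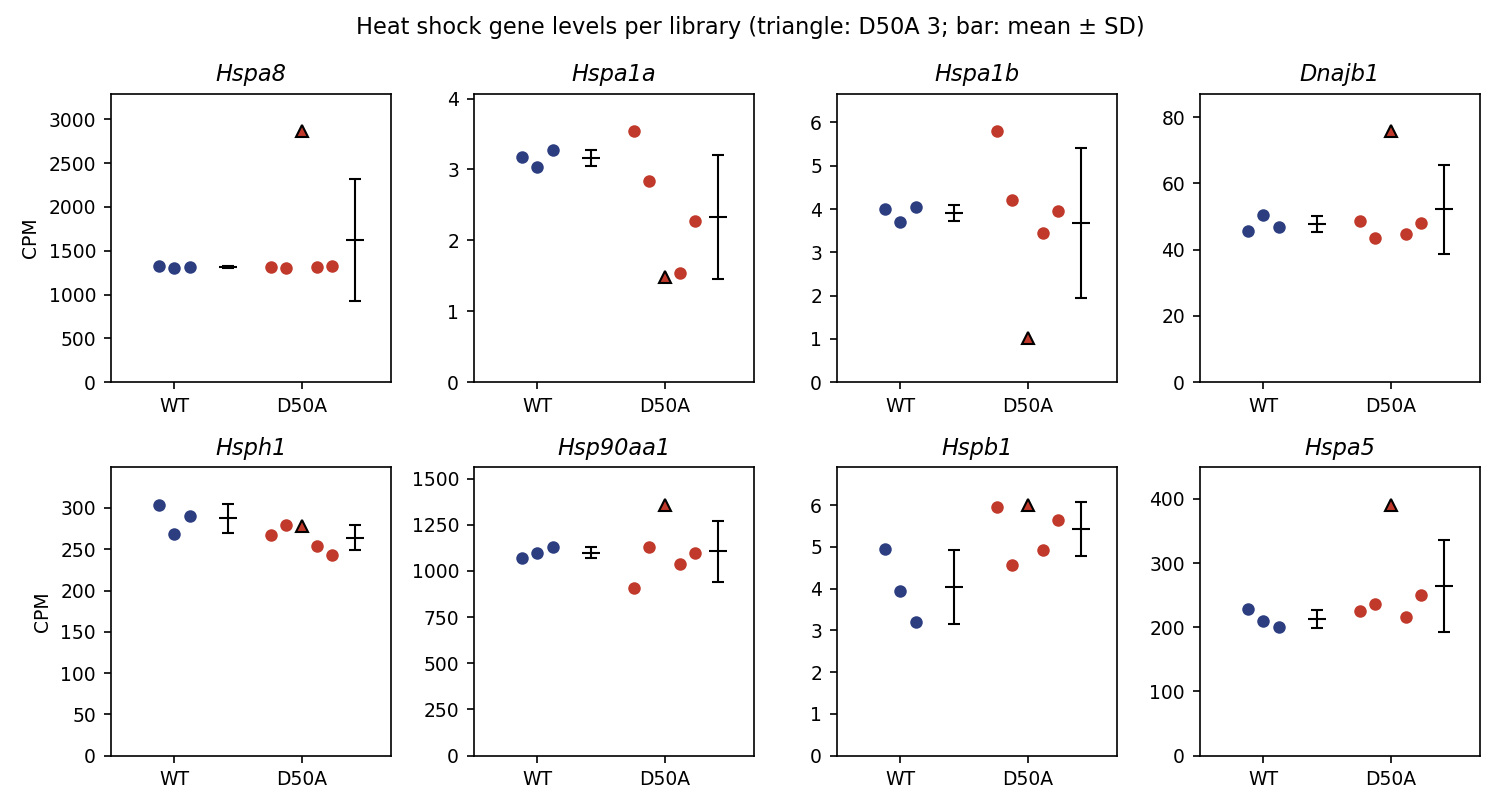
CPM of each of the 8 genes (vertical axes, linear from 0) in every library, WT in blue and D50A in red, with the group mean ± SD beside the points and D50A 3 as a triangle. Hspa8 sits at 1298 to 1323 CPM in 7 libraries and at 2864 CPM in D50A 3, and in every panel the D50A points overlap the WT points.

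Hspa8 (ENSMUSG00000015656, chromosome 9, 40800984 to 40810087, plus strand, with 3 small nucleolar RNA genes inside it) encodes HSC70, the constitutive HSP70 of the cytosol that also uncoats clathrin vesicles at synapses. It was at 1314, 1308, 2864, 1309.5 and 1323 CPM in D50A 1 to 5 and at 1320.4, 1298 and 1318 CPM in WT 1 to 3. The 4 D50A libraries other than D50A 3 lay among or next to the WT values, and D50A 3 was at 2.18 times the WT mean. The edgeR log2 fold change was 0.31 ± 0.3 (SE), adjusted p = 0.837, and 0.01 without D50A 3 (adjusted p = 0.964).

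Over the 7 libraries other than D50A 3 the coefficient of variation (CV, the SD over the mean) of Hspa8 was 0.65%, close to the 0.613% that counting error alone gives at its depth. That was the lowest CV of the 2362 genes with a mean of at least 100 CPM, whose median CV was 7.36%. The ranking was made after the values were seen and depends on scaling: its CV was 0.966% and its rank 2 with relative log expression (RLE) factors, 1.32% and 5 with upper-quartile scaling, and 1.55% and 9 with total counts. Hsp90aa1, Hsph1 and Hspa5 had CVs of 7.24%, 7.55% and 7.37%, near that median. These 7 libraries include 3 with the high cerebellar marker sums and 4 with the low ones, and the level of Hspa8 lay at 1308 to 1323 CPM in the former and 1298 to 1320.4 CPM in the latter.

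**Figure D2:**
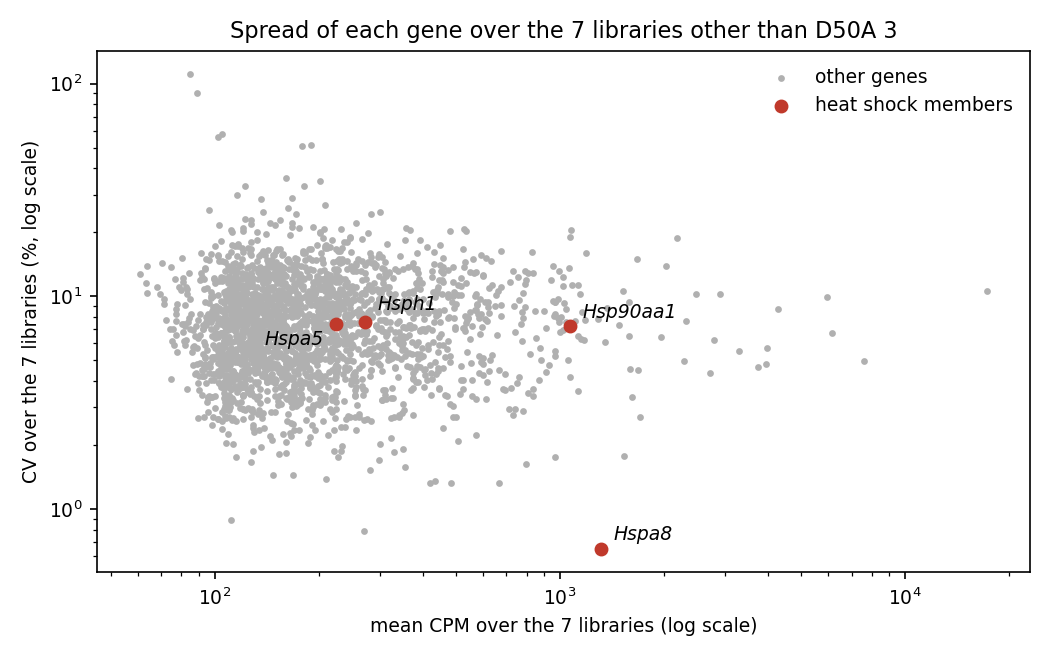
CV over the 7 libraries other than D50A 3 (vertical axis, percent, log scale) against mean CPM over the same libraries (horizontal axis, log scale) for 2362 genes in grey and the 4 members among them in red. Hspa8, at a CV of 0.65%, lies below all other points, while Hsp90aa1, Hsph1 and Hspa5 lie in the middle of the cloud.

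Hspa1a, an HSF1 target that is nearly silent in unstressed tissue, was at 3.54, 2.84, 1.48, 1.54 and 2.27 CPM in D50A 1 to 5 and at 3.18, 3.04 and 3.27 CPM in WT 1 to 3. D50A 1 was the highest of all libraries, while D50A 2 to 5 lay below the 3 WT libraries. The counts behind these values ran from 16 in D50A 3 to 91 in D50A 1, and counting error alone was 10.5% to 25% of a value. The log2 fold change was -0.42 ± 0.3 (SE), edgeR adjusted p = 0.837, -0.28 without D50A 3 (adjusted p = 0.773) and -0.49 ± 0.21 (SE) without D50A 1 and D50A 3 (adjusted p = 0.178). Across all alternatives its fold change stayed below 0 and none passed the threshold.

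Its neighbour Hspa1b was at 5.8, 4.21, 1.02, 3.44 and 3.96 CPM in D50A and at 3.99, 3.7 and 4.04 CPM in WT. Here D50A 1 was again the highest and D50A 3 the lowest library, at 11 counts, and the remaining 3 D50A libraries surrounded the WT values. The log2 fold change was -0.06 ± 0.42 (SE), edgeR adjusted p = 0.954, and it was 0.18 without D50A 3 (adjusted p = 0.815). Adding the counts of the pair into 1 feature gave 240, 139, 27, 94 and 126 counts in D50A and 149, 133 and 123 in WT. The summed feature had a log2 fold change of -0.22 ± 0.35 (SE), edgeR adjusted p = 0.838.

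The division of counts within the pair was examined after the values were seen. Hspa1b held 55.7%, 54.9% and 55.3% of the pair's counts in WT 1 to 3, and 62.1%, 59.7%, 40.7%, 69.1% and 63.5% in D50A 1 to 5. All D50A libraries except D50A 3 lay above the WT libraries, but the 95% Clopper-Pearson intervals were wide, from 22.4% to 61.2% in D50A 3 and from 47.3% to 63.8% in WT 1, and cover counting error only. Only the D50A 4 interval, 58.8% to 78.3%, lay above all 3 WT shares, and it overlapped the WT intervals. The WT shares lay much closer together than their intervals are wide, so their SD is a poor guide to spread. The mean share was 59% ± 10.8 (SD, n = 5) in D50A against 55.3% ± 0.409 (SD, n = 3) in WT, with p = 0.625 by a two-sided exact permutation test. Without D50A 3 it was 63.6% ± 4.01 (SD, n = 4), with an exact permutation p of 0.0571, where 0.0286 is the smallest this design allows.

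**Figure D3:**
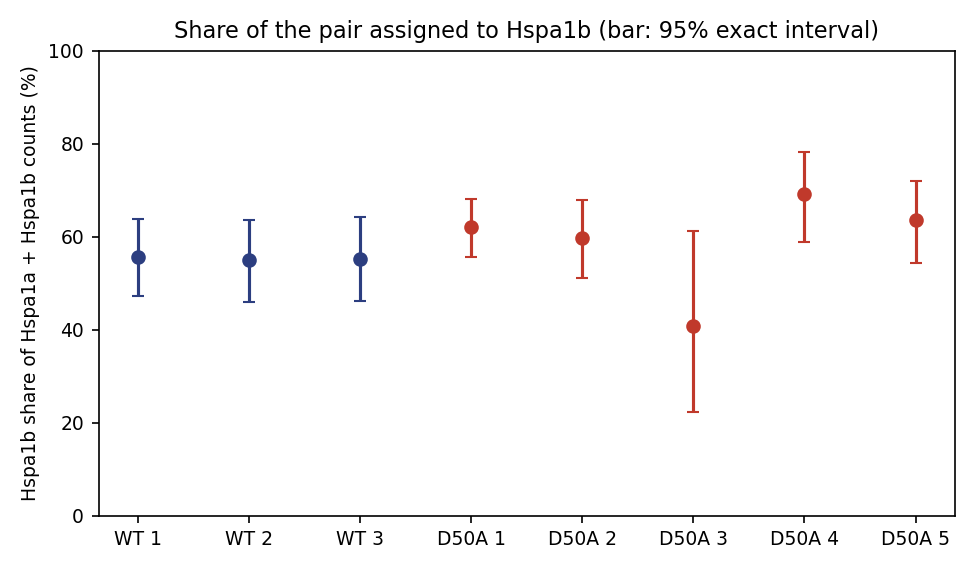
Share of the summed Hspa1a and Hspa1b counts assigned to Hspa1b (vertical axis, percent) in each library, WT in blue and D50A in red, with 95% exact intervals as bars. The 3 WT libraries sit at 54.9% to 55.7%, and D50A 3, with 27 counts in all, has the widest interval.

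The partners of HSP70 were not called either. Dnajb1 (ENSMUSG00000005483, chromosome 8, 83608193 to 83612653, plus strand), the main stress-inducible J-domain partner of HSP70, was at 48.7, 43.4, 75.8, 44.8 and 48.1 CPM in D50A and at 45.7, 50.5 and 47 CPM in WT. Apart from D50A 3 the groups overlapped throughout. Its log2 fold change was 0.13 ± 0.2 (SE), edgeR adjusted p = 0.839, and it was -0.03 without D50A 3 (adjusted p = 0.924).

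Hsph1 (ENSMUSG00000029657, chromosome 5, 149614287 to 149636376, minus strand) encodes HSP105, a nucleotide exchange factor for HSP70. It was at 267, 279, 278, 254 and 243 CPM in D50A and at 304, 269 and 289.9 CPM in WT. D50A 3 was no outlier here, at 0.965 times the WT mean. The groups overlapped through WT 2, and 3 of the 5 D50A libraries lay below all WT libraries. The log2 fold change was -0.12 ± 0.13 (SE), edgeR adjusted p = 0.837. It was -0.13 without D50A 3 (adjusted p = 0.592) and -0.14 ± 0.06 (SE) without D50A 1 and D50A 3 (adjusted p = 0.214).

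Hsp90aa1 (ENSMUSG00000021270, chromosome 12, 110690605 to 110702728, minus strand), the stress-inducible cytosolic HSP90, was at 909.9, 1131, 1359, 1037 and 1098 CPM in D50A and at 1068, 1099 and 1132 CPM in WT. D50A libraries held both the lowest value, D50A 1, and the highest, D50A 3. The group means were 1107 ± 164 CPM (SD, n = 5) and 1099.5 ± 31.9 CPM (SD, n = 3), and the log2 fold change was 0.01 ± 0.17 (SE), edgeR adjusted p = 0.983. Without D50A 3 it was -0.06 (adjusted p = 0.856).

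Hspb1 (ENSMUSG00000004951, chromosome 5, 135887919 to 135889563, plus strand), the small heat shock protein HSP25 of mouse, had the smallest unadjusted p of the 8 in the edgeR fit of all libraries, though not by limma-voom. It was at 5.96, 4.56, 6.01, 4.93 and 5.64 CPM in D50A and at 4.96, 3.95 and 3.21 CPM in WT. WT 1 lay above D50A 2 and D50A 4, and the other 2 WT libraries lay below all D50A libraries. The means were 5.42 ± 0.645 CPM (SD, n = 5) and 4.04 ± 0.877 CPM (SD, n = 3), a log2 fold change of 0.42 ± 0.19 (SE), edgeR adjusted p = 0.837. It was 0.39 without D50A 3 (adjusted p = 0.503) and stayed between 0.28 and 0.59 over the alternatives, with no adjusted p under 0.229. In brain Hspb1 is expressed by vessel cells and glia as well as by some neurons. The 6 endothelial markers summed to 172.3 to 229.6 CPM in D50A beside 203 to 227 CPM in WT, and the 6 astrocyte markers to 2487 to 3577 CPM and 3814 to 4005 CPM. Of the astrocyte markers only Slc1a2, a glutamate transporter gene with a mean of 2732 CPM in WT, lay wholly below WT, while 4 of 6 had a log2 fold change above 0 and the list median was 0.07. The part of either cell type in the Hspb1 values was not tested. In whole tissue, a change in the number of cells of a type and in RNA per cell cannot be told apart.

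Hspa5 (ENSMUSG00000026864, chromosome 2, 34771970 to 34777547, plus strand) encodes BiP, the HSP70 of the endoplasmic reticulum and a target of the unfolded protein response. It was at 226, 237, 391, 216 and 249.9 CPM in D50A and at 229, 210.2 and 201 CPM in WT. Besides D50A 3, D50A 2 and D50A 5 lay above all WT libraries, and D50A 1 and D50A 4 lay among them. Its log2 fold change was 0.31 ± 0.22 (SE), edgeR adjusted p = 0.837. Leaving out D50A 3 lowered it to 0.13 (adjusted p = 0.611), and leaving out D50A 1 as well gave 0.15 ± 0.07 (SE) (adjusted p = 0.187).

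**Figure D4:**
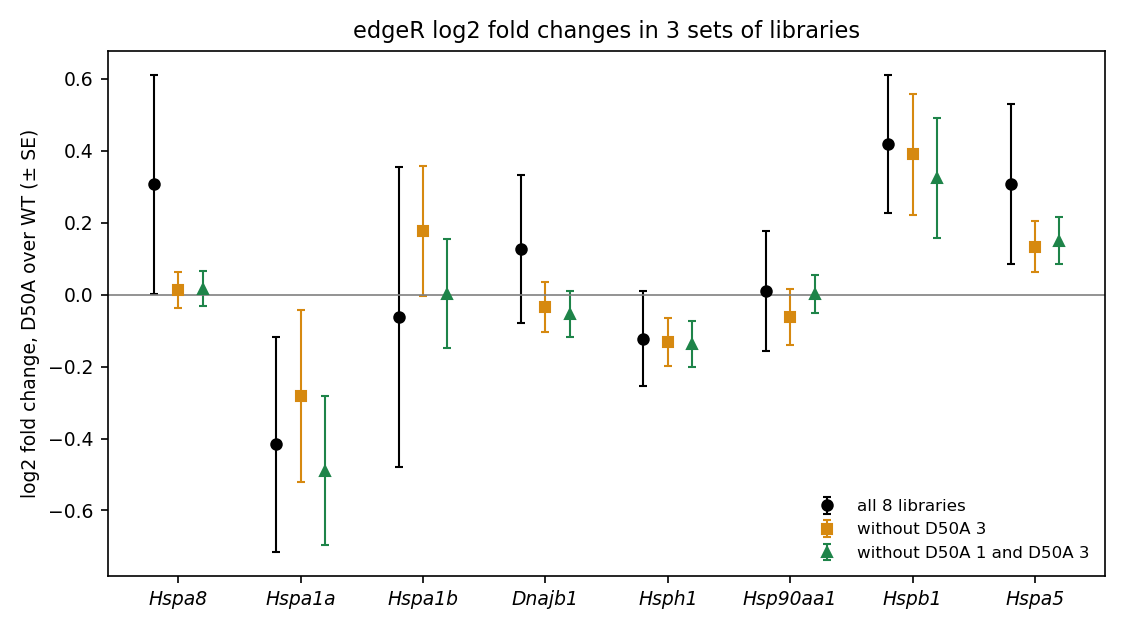
edgeR log2 fold changes of D50A over WT (vertical axis) with SE as bars for the 8 genes, from all 8 libraries (black circles), without D50A 3 (orange squares) and without D50A 1 and D50A 3 (green triangles). The SE of Hspa8 is 0.3 with all libraries and 0.05 without D50A 1 and D50A 3, and none of the plotted values passed the threshold.

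D50A 3 set much of the spread within the mutant group, and the 8 genes deviated in opposite directions there. Against the WT mean, on the log2 CPM scale, it was at 1.13 for Hspa8, 0.88 for Hspa5, 0.67 for Dnajb1, 0.58 for Hspb1, 0.31 for Hsp90aa1, -0.05 for Hsph1, -1.04 for Hspa1a and -1.84 for Hspa1b. None of these was extreme for that library: Hspa8 lay above 82.5% of all tested genes and Hspa1b above 12.4%, with a median deviation of -0.1 over all genes. The share of mitochondrially encoded counts was 11.9% in D50A 3, and markers of several cell types stood apart there too. The 6 oligodendrocyte markers summed to 20246 CPM in D50A 3 against 9070 to 11028 CPM in the other libraries, the 5 blood markers to 2363 against 306 to 548 CPM and the 6 microglia markers to 384 against 175 to 215 CPM. The 7 neuron markers summed to 3960 CPM, the lowest of the 8 libraries, against 4598 to 5141 CPM. The part of these in the deviations was not tested.

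The transcription factors that drive or restrain the heat shock response were not called either. Hsf1 was at 44.5, 36.4, 8.7, 34.6 and 33.5 CPM in D50A and at 44.3, 36.7 and 36.1 CPM in WT, with D50A 3 far below the rest. Its log2 fold change was -0.3 ± 0.42 (SE), edgeR adjusted p = 0.837, and -0.05 without D50A 3. Hsf2, another heat shock factor, was at a mean of 21.4 ± 1.56 CPM in D50A (SD, n = 5) beside 23.7 ± 2.16 in WT (SD, n = 3). Hsbp1, which encodes a small protein that binds HSF1, averaged 295 ± 176 CPM in D50A and 213 ± 5.17 CPM in WT, and D50A 3 alone was at 609 CPM. Of the 5 factors listed, 0 passed, and the list median was -0.26, or -0.14 without D50A 3.

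Other chaperone families gave the same count. edgeR, DESeq2 and limma-voom called 0 of 10 other HSP70 genes, 0 of 3 other HSP90 genes, 0 of 42 J-domain genes, 0 of 6 small heat shock genes, 0 of 22 co-chaperones and 0 of 10 chaperonin genes, and 0 of them had an unadjusted p under 0.05 by edgeR. DESeq2 gave no adjusted p for Dnajc19 and Hspe1. Their median log2 fold changes were -0.07, 0.14, 0.06, 0.42, 0.14 and 0.31 in that order, beside -0.01 over all genes, and without D50A 3 they were -0.02, 0.02, 0.02, 0.14, 0.02 and 0.05. Chaperonin genes, which build the folding chambers of cytosol and mitochondria, summed to 2341 CPM in D50A 3 and to 1109 to 1171 CPM in the other 7 libraries. Hspe1, the mitochondrial co-chaperonin, was at 319.5 CPM in D50A 3 and 59.6 CPM in the lowest D50A library, against 63.4 to 68.5 CPM in WT. Cct4, a subunit of the cytosolic chaperonin, was at a mean of 105 ± 52.4 CPM in D50A (SD, n = 5) beside 77.5 ± 2.1 in WT (SD, n = 3).

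Among co-chaperones Fkbp4, an immunophilin of HSP90 complexes, was at 123 to 226 CPM in D50A beside 110 to 119 CPM in WT, and Cdc37l1, a relative of the kinase co-chaperone CDC37, was at 99.2 ± 23.5 CPM against 82.1 ± 5.02 CPM. D50A and WT did not overlap, with D50A higher, for Fkbp4 and Stip1, 2 of 22 co-chaperones, and for Hspb3 and Hspb11, 2 of 6 small heat shock genes, beside 3.23% of all genes. Hspb3 was at a mean of 1.51 ± 0.332 CPM in D50A (SD, n = 5) beside 1.01 ± 0.22 in WT (SD, n = 3), and its log2 fold change was 0.54 ± 0.25 (SE), edgeR adjusted p = 0.837. Hspb11, which despite its name works in ciliary transport, was at 8.04 ± 3.53 CPM against 5.13 ± 0.413 CPM. Without D50A 1 and D50A 3 edgeR called Cdc37l1 alone among these lists (log2 fold change 0.23, adjusted p = 0.0478), with 3.36% of genes called higher in that fit.

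For J-domain genes, Dnajc6, the neuronal auxilin that recruits HSC70 to clathrin coats, was at 191 to 288 CPM in D50A beside 304 to 326 CPM in WT. Its log2 fold change was -0.3 ± 0.17 (SE), edgeR adjusted p = 0.837, and -0.2 without D50A 3. Of 42 J-domain genes only Dnajc6 had all D50A libraries below WT, beside 4.24% of all genes, and only Dnajc7 had all of them above, beside 3.23%. Dnajc19, of the mitochondrial import motor, was at 20.5 to 116 CPM against 17.8 to 21.3 CPM. Of other HSP70 genes Hspa14 was at a mean of 47.8 ± 14.1 CPM in D50A (SD, n = 5) beside 38.5 ± 3.15 in WT (SD, n = 3) and Hspa2 at 24.9 ± 7.73 CPM against 30.7 ± 4.29 CPM. Of other HSP90 genes the mitochondrial Trap1 was at 74.8 ± 11 CPM against 67.6 ± 0.539 CPM and the endoplasmic reticulum form Hsp90b1 at 228 ± 51.4 CPM against 206 ± 8.59 CPM.

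The unfolded protein response list, which shares some genes with the lists above, had 0 of 31 called by the 3 tools and a median of 0.11, or 0.04 without D50A 3. Sdf2l1, a partner of BiP, was at a mean of 12.7 ± 7.72 CPM in D50A (SD, n = 5) beside 7.88 ± 0.759 in WT (SD, n = 3). Atf6, a sensor of the response, was at 55.5 to 82.6 CPM in D50A beside 83.6 to 101 CPM in WT, and its log2 fold change was -0.26 ± 0.17 (SE), edgeR adjusted p = 0.837, or -0.16 without D50A 3. It was the only gene of the 31 wholly below WT, beside 4.24% of all genes, and Ddit3, a stress-induced transcription factor gene, the only one wholly above, beside 3.23%. Immediate-early genes, transcripts induced within minutes by activity or handling, varied between libraries of both groups. The 12 genes summed to 286, 549, 187, 629 and 745 CPM in D50A 1 to 5 beside 425, 514 and 693 CPM in WT 1 to 3, and 0 were called. Npas4 was at 24.7 ± 13.4 CPM against 36.2 ± 4.68 CPM and Jun at 43.8 ± 7.48 CPM against 49.8 ± 2.72 CPM. Without D50A 1 and D50A 3 edgeR called 1 of the 12 higher, Dusp1, and 0 lower, beside 3.36% and 3.06% of all genes. D50A 1 and D50A 3, the libraries with the highest and lowest pair of Hspa1a and Hspa1b counts, had the lowest 2 immediate-early sums; a relation was not tested.

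The genes whose library profiles came closest to each member were sought among genes with a mean log2 CPM of at least 2, by the root mean square difference of centred log2 CPM over the 8 libraries. For Hspa8 these were Dnajc8, a J-domain gene of the spliceosome, at a difference of 0.02, and Actr3b, an actin-related gene, at 0.03. Actr3b was at 80.4 to 83.4 CPM in 7 libraries and 188 CPM in D50A 3. Hspa1a lay nearest to Wnk4 at 0.12 and Sp9 at 0.16, and Hspa1b to Col6a2 at 0.08 and Dvl2 at 0.1. Wnk4 was at 3.05, 3.5 and 4.45 CPM in D50A 3 to 5 and 6.47 to 7.6 CPM in the other libraries except D50A 2, at 5.53 CPM. Dnajb1 lay nearest to Pon2 and Nrbp1 at 0.04 and 0.05, Hsph1 to Gucy1b3 and Fam3c, each at 0.04, and Hsp90aa1 to Wac and Ccny, each at 0.04. Tapbpl lay at 0.06 from Hspa5, and Hspb1 lay nearest to Fahd2a and Itih2, each at 0.14. With 16810 genes to choose from, a near match over 8 libraries describes these libraries only.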

How the data were processed

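The values are unnormalized read counts for 25815 genes, as deposited. The genome build mm10 and the tools STAR 2.5, HTSeq 0.6.1, CASAVA 1.8 and DESeq2 2 are named, without their order, per the submitters' processing notes. No source used here gives the annotation or the strand setting. Groups follow the genotype label. Nothing in the labels says more of the replicates than 1 library a mouse, so p-values measure the spread between these libraries. The 8 members and all gene lists were chosen with earlier results of these data known.

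Counts were tested with edgeR 4.0.16 in R 4.3.3 (filterByExpr, TMM, quasi-likelihood test over all 8 libraries, Benjamini-Hochberg over all genes tested, threshold 0.05) after a check on simulated data. The SE is the fold change over the square root of F. Log2 CPM adds a prior count of 2. DESeq2 1.42.0 and limma 3.58.1 were alternatives. Named genes were the 8 members, Cstf2, Hsf1, the 2 of smallest p in each chaperone or stress list and the 2 nearest profiles of each member; others were named after their values were seen. 1 gene chosen by this rule is not reported here. Positions and exon lengths came from GENCODE M21 (mm10; 25484 identifiers matched) and promoters from RefSeq.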

Additional observations from a re-analysis of the deposited data

Results flagged for a closer look

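In 21 of 43 named genes, 3 of them members, 1 D50A library lay far from the other 4 on the log2 CPM scale, so that its gap to the nearest library, as a share of the group's range, exceeded the critical value of 0.71 for 5 samples. Chance flags about 1 in 20 such groups, and the genes are not independent, since the library was D50A 3 in all but Itih2, where D50A 2 was lowest (0.793). Only named genes were screened, so the share flagged over all tested genes is not known and the count describes no trait of the members. Flags of genes chosen for their likeness to a member are not separate observations. Among the members D50A 3 was highest for Hspa8 (0.986), Dnajb1 (0.793) and Hspa5 (0.754). It was also highest for the chaperone and stress genes Fkbp4 (0.945), Dnajc19 (0.931), Hsbp1 (0.926), Hspe1 (0.892), Cct4 (0.819), Trap1 (0.778) and Sdf2l1 (0.775). It was lowest for Atf6 (0.895), Jun (0.862) and Hsf1 (0.826). Among genes chosen for their likeness to a member, D50A 3 was highest for Actr3b (0.98), Dnajc8 (0.937), Nrbp1 (0.868), Pon2 (0.797) and Tapbpl (0.744) and lowest for Col6a2 (0.776) and Dvl2 (0.756). Mitochondrially encoded genes took 11.9% of the counts in D50A 3, and the part of that in these gaps was not tested.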

How the results depend on the processing

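No alternative called a member. Over all genes, with 0 higher and 0 lower in the fit as reported, DESeq2 called 31 higher and 6 lower, limma-voom with quality weights 315 and 202, and the fit without D50A 1 and D50A 3 558 and 507. In that last fit genotype cannot be told apart from cerebellar content, since only D50A libraries with high cerebellar marker sums were left. Leaving out each library in turn gave 0 to 26 higher, the 26 without D50A 1, and 0 lower in each. These extra calls held 0 of the 8 members. At most 3.36% of genes were called higher and 3.06% lower, so 0 of 8 lies near the share over all genes.

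Of the members, Hspa1a and Hsph1 stayed below 0 and Hspa5, Hspa8 and Hspb1 above 0 under every alternative. Hspa8 came near 0, at 0.007 by limma-voom, 0.013 without D50A 3 and 0.017 without D50A 1 and D50A 3, each with an SE of about 0.05. Hspa1b, Hsp90aa1 and Dnajb1 changed sign around values near 0, and the cause was not tested. By limma-voom Hspa1b was at 0.014, Hsp90aa1 at -0.029 and Dnajb1 at -0.07 on the log2 scale, and without D50A 1 and D50A 3 Hspa1b was at 0.003 and Dnajb1 at -0.055. Leaving out each library in turn gave -0.269 to 0.177 for Hspa1b, -0.063 to 0.095 for Hsp90aa1 and -0.035 to 0.186 for Dnajb1, with the sign changing without D50A 3 in all 3 and without WT 1 in Hsp90aa1 (-0.013). As a plain difference in mean log2 CPM Hsp90aa1 was at -0.002. The two-sided exact permutation test of log2 CPM gave p from 0.0714 for Hspb1 to 0.946 for Hsp90aa1, not adjusted, where 0.0179 is the smallest it allows. The CV of Hspa8 over 7 libraries moved to 1.32% and 1.55% with upper-quartile scaling and total counts, settings added after seeing the data.

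No paired analysis was possible because replicate numbers were given in accession order and name no shared animal or litter. Depth limits Hspa1a, Hspa1b and Hspb1, at 11 to 153 counts a library, where counting error alone was 8.08% to 30.2% of a value.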
